A study of Mus musculus with 6 samples.

Results

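The genes described here encode the extracellular side of Wnt signalling: the Wnt ligands, their Frizzled receptors (Fzd), and the secreted inhibitors of the Sfrp and Dkk families. They were chosen by name alone, as every gene whose probe set carried 1 gene symbol made of Wnt, Fzd, Sfrp or Dkk and a number, and each gene was read from its probe set with the highest mean over the 6 arrays. This gave 37 genes of the 19938 measured, namely 19 Wnt, 10 Fzd, 4 Sfrp and 4 Dkk genes. Wnt4 alone had another probe set.

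RNA of mouse iPSCs (induced pluripotent stem cells, which are fibroblasts turned back to an embryo-like state) was hybridised to 6 Affymetrix mouse gene arrays, 3 of cells in primed culture and 3 of cells in naive culture. Primed cells were grown in medium conditioned by embryonic fibroblasts with basic FGF at 8 ng/ml, on feeder cells or on matrigel, and the labels do not say which was used for these arrays. Naive cells were grown with LIF (leukaemia inhibitory factor) at 1000 U/ml and 15% fetal bovine serum. The titles give adult dermal fibroblasts as the origin of the primed lines and embryonic fibroblasts as that of the naive lines, while a further label gives embryonic fibroblasts for all 6, so that culture and origin cannot be told apart. The arrays of a group are called biological replicates but the labels leave out what was repeated, and p-values here reflect only how much these 6 arrays vary. No genotype, strain or number of lines is given in the labels.

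A Wnt protein is lipid-modified in the secreting cell and carried to its surface by the Wls protein. Outside, it binds the cysteine-rich domain of a Frizzled receptor, either together with the co-receptors Lrp5 and Lrp6, which leads to stabilised beta-catenin and transcription through TCF/LEF factors, or with co-receptors such as Ror2, which acts through other routes. Sfrp proteins carry a Frizzled-like domain and bind Wnts in the medium, whereas Dkk1 binds Lrp5 and Lrp6. In mouse pluripotent cells, Wnt signalling is known to support self-renewal in the naive state, and in the epiblast it is needed for the primitive streak.

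Promoter sequences of 4 members are shown with the base composition of the members' windows, which the choice by name did not use. RefSeq windows of 300 bases (250 before and 50 after the start of transcription, build GRCm38.p6) were at hand for 25 of the 37 genes, 28 windows in all. Their median GC content was 68.7%, against 52.7% over all 32851 windows of the table, and their median number of CpG dinucleotides was 26.5, against 7. The members' windows varied widely, with a GC content from 48.3% (Wnt8b) to 86.3% (Wnt3a) and from 4 CpG dinucleotides in a window of Wnt5b to 58 in that of Wnt9a. The windows of 3 members with large differences, Wnt3, Fzd10 and Fzd4, and that of the inhibitor gene Dkk1 follow, each 5′ to 3′ on the strand of the gene. Capitals mark CTTTG or its reverse complement CAAAG, the core letters that TCF/LEF factors recognise.
Wnt3 promoter, chr11:103773925-103774224, plus strand: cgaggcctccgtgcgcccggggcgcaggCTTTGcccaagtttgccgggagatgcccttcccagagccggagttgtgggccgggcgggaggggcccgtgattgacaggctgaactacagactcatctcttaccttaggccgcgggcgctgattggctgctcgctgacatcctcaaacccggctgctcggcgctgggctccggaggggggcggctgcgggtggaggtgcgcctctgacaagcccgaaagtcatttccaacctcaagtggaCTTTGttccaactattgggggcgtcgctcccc
Fzd10 promoter, chr5:128600856-128601155, plus strand: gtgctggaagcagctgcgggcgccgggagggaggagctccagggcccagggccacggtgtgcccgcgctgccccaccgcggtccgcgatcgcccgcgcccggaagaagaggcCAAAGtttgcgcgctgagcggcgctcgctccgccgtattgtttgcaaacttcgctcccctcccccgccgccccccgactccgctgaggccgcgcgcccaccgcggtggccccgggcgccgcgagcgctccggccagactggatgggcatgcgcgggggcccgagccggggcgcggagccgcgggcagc
Fzd4 promoter, chr7:89404116-89404415, plus strand: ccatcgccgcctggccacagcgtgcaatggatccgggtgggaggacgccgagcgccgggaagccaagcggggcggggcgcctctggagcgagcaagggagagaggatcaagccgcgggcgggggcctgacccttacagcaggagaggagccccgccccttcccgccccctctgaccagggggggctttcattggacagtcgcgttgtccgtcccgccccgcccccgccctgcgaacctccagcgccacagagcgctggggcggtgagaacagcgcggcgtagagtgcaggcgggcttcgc
Dkk1 promoter, chr19:30549447-30549746, minus strand: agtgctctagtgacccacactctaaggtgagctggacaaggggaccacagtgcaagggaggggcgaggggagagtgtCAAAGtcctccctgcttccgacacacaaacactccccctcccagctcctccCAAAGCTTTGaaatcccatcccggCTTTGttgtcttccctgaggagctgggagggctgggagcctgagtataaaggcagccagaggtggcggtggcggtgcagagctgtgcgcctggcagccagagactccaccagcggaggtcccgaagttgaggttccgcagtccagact
The Wnt3 window held the core 2 times, that of Fzd10 1 time, that of Fzd4 0 times and that of Dkk1 4 times. The Fzd4 and Fzd10 windows held 32 and 45 CpG dinucleotides, that of Wnt3 24 and that of Dkk1 9. The core letters were found on either strand in 13 of the 28 members' windows (46.4%) and in 53.9% of all windows. They lay in 2 of 7 windows of genes higher in primed cells, 6 of 10 of genes higher in naive cells and 5 of 11 of the others. Among windows not shown, those of Fzd1 and Fzd7 (higher in primed) held the core and those of Wnt2b and Wnt4 (higher in naive) did not. A link between core and direction was not tested. The longer form CTTTGAA, which contains the core, was found in the Dkk1 window alone among the members, against 5.14% of all windows. CTTTGAT, the other longer form searched, was found in 2 members' windows (7.14%), against 3.73% of all. The letters TATAAA lay in the Dkk1 window and 3 others of the members (14.3%, against 13.6% of all windows on either strand), and GGGCGG, the letters of a GC box, in 21 of the 28 (75.0%, against 35.7%). These matches are descriptions of letters and were not linked to binding.

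All levels are on the log2 scale of RMA, the robust multi-array average, and every difference is the primed mean minus the naive mean, so that a positive value is higher in primed cells. Levels of different genes come from different probes and are not set against each other. Array medians lay between 7.77 and 7.80 on primed and between 7.79 and 7.83 on naive arrays, and values correlated across genes at r of 0.998 to 0.999 within either group and 0.980 between groups. Background was set on each array as the level below which 95% of 1196 genes for olfactory and vomeronasal receptors lay (6.96 to 7.02 on primed and 6.97 to 7.02 on naive arrays), and RMA compresses differences near it. The pluripotency genes Pou5f1 (11.53 ± 0.07 in primed and 12.59 ± 0.05 in naive cells, SD, n = 3 each), Sox2, Nanog, Sall4, Lin28a and Utf1 were above background on all 6 arrays, and 4 of these 6 fell in primed cells, as given with the other markers. Markers that separate the states did not all follow the labels: Otx2 was at 11.80 ± 0.02 in primed and 10.87 ± 0.06 in naive cells, but Fgf5, a marker of the primed state, was at 8.90 ± 0.03 in primed and 10.61 ± 0.09 in naive cells, and Esrrb, a factor of the naive state, at 11.24 ± 0.02 in primed and 8.25 ± 0.11 in naive cells (SD, n = 3 each). The names primed and naive are used here as the labels give them.

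Among the 37 genes, 11 rose and 12 fell in primed cells relative to naive cells at a limma adjusted p under 0.05, and 14 did not pass. These 23 genes are 62.2% of the members, against 44.5% of all genes tested (21.8% with a rise and 22.7% with a fall in primed cells). The share with a call and a difference of at least 0.5 was 29.7% (11 of 37 genes), against 13.9% of all genes. Of these, 5 rose (7.42% of all genes did so) and 6 fell (6.45%). A call with at least a 2-fold difference was made for 5 of the 37 members, against 707 of the 19938 genes (3.55%). A smaller share of the members than of all genes was in background: 4 of the 37 lay there on all arrays, against 5353 of the 19938 genes. Of the 14585 genes outside it, 56.6% were called and 18.5% were called with a difference of at least 0.5; of the 33 members outside it these shares were 69.7% and 33.3%. These shares are a description, since a gene high in only 1 group enters through that group.

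Among Wnt ligands 2 rose and 7 fell in primed cells, among Frizzled receptors 6 rose and 2 fell, among Sfrp genes 3 rose and 0 fell, and among Dkk genes 0 rose and 3 fell. Of all genes 21.8% rose and 22.7% fell. The share called was 47.4% of the Wnt genes, near the 44.5% of all genes. It was 80.0% of the Fzd genes and 75.0% of the 4 genes in either inhibitor family. Of all genes outside background 56.6% were called. All 10 Fzd genes and all but 3 Wnt genes lay outside it. Whether the families differed from each other was not tested. The median difference was -0.05 over the Wnt genes, 0.28 over the Fzd genes, 0.26 over the Sfrp genes and -0.21 over the Dkk genes, against -0.00146 over all genes. Primed and naive arrays were fully apart for 23 of the 37 genes, a share of 62.2%, against 52.9% of all genes and 65.4% of those outside background, where the members' share was 69.7%. Of the members, 30 lay above background on all 6 arrays, and Wnt1, Wnt5a, Wnt8b and Sfrp4 were in background in both groups, where a difference cannot be read.

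**Figure D1:**
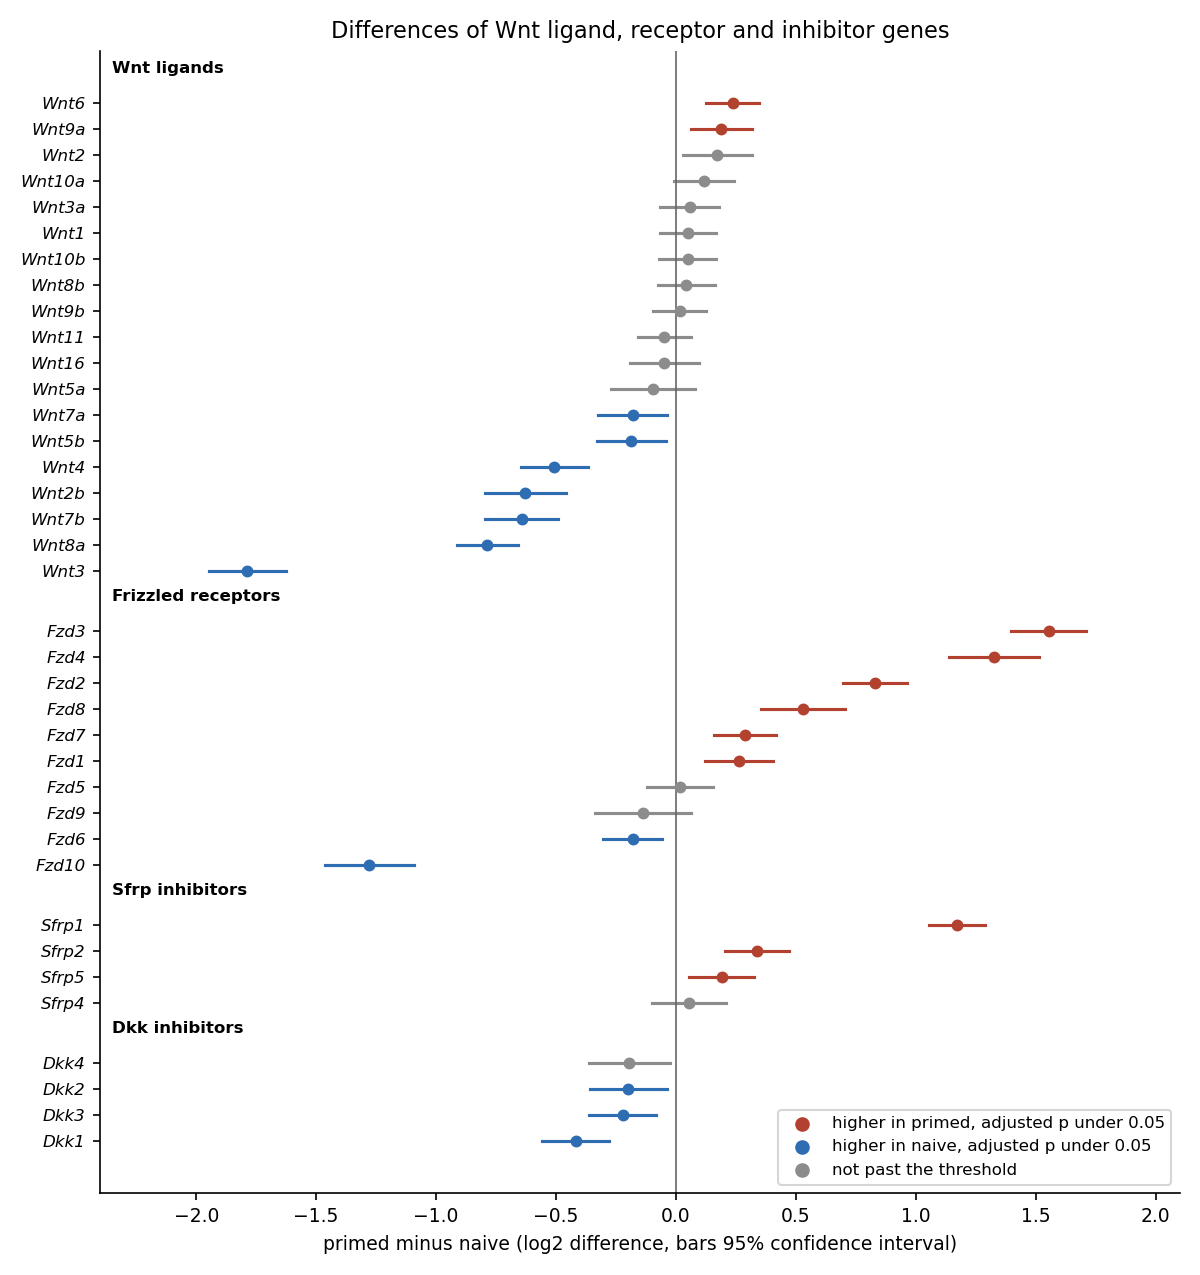
Differences (primed minus naive, log2 RMA scale, horizontal axis) of the 37 genes by family, with bars for the 95% confidence interval from limma and colours for genes past an adjusted p of 0.05. Of the coloured Frizzled points 6 lie on the right and 2, Fzd10 (-1.28) and Fzd6 (-0.18), on the left, and of the coloured Wnt points 7 lie on the left and 2, Wnt6 (0.24) and Wnt9a (0.19), on the right.

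Wnt3, the ligand needed for the primitive streak of the mouse embryo, had the largest difference of the family. Its levels were 8.26, 7.98 and 8.20 on primed arrays, against 9.86, 9.97 and 9.98 on naive arrays. Every primed array lay well below every naive one, and all 6 lay above background. The difference was -1.79 (SE 0.07, limma adjusted p = 6.99e-09). Wnt8a, a ligand of the posterior epiblast and streak, had levels of 10.35, 10.21 and 10.19 on primed arrays, against 10.99, 11.07 and 11.05 on naive arrays. It too was lower on each primed array, with a difference of -0.79 (SE 0.06, limma adjusted p = 6.83e-07).

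Wnt7b, a ligand of placenta, lung and brain vessel development, was at 7.89, 7.87 and 7.71 on primed arrays, against 8.54, 8.52 and 8.34 on naive arrays, a difference of -0.64 (SE 0.07, limma adjusted p = 1.54e-05). Wnt2b, which acts with Wnt2 in the lung primordium, was at 7.06, 6.95 and 6.99 on primed arrays, against 7.82, 7.50 and 7.57 on naive arrays. Its primed values sat at the background cutoff, so its difference of -0.63 (SE 0.08, limma adjusted p = 4.08e-05) is compressed on that side. Wnt4, a ligand of kidney tubules and the female gonad, was at 8.54, 8.35 and 8.39 on primed arrays, against 8.96, 8.86 and 8.98 on naive arrays. The groups did not overlap in any of these 3 genes. Wnt4 differed by -0.51 in its brighter probe set (SE 0.06, limma adjusted p = 4.86e-05) and by -0.19 in the other (adjusted p = 0.0357 in a limma fit over all single-symbol probe sets), so that the direction was shared and the size was not.

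The other calls among ligands were small. Wnt6 averaged 7.81 ± 0.02 in primed and 7.58 ± 0.04 in naive cells, and Wnt9a, a ligand of developing joints, 8.86 ± 0.09 and 8.68 ± 0.03 (SD, n = 3 each), which are rises of 0.24 and 0.19 (limma adjusted p = 0.00233 and 0.0190). Wnt5b averaged 8.28 ± 0.09 in primed and 8.47 ± 0.09 in naive cells with overlapping arrays, and Wnt7a, which patterns the dorsal limb, 7.23 ± 0.13 and 7.41 ± 0.01 (SD, n = 3 each). Their differences of -0.19 and -0.18 (limma adjusted p = 0.0362 and 0.0425) lost the call under 8 of 14 and 9 of 13 alternative settings. That of Wnt9a was lost in 2 fits, when naive replicate 1 (adjusted p = 0.0581) or primed replicate 3 (adjusted p = 0.0953) was left out, with a range of 0.00863 to 0.0953 over its 14 alternatives.

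The other 10 ligand genes did not pass. Their differences ran between -0.10 (Wnt5a) and 0.17 (Wnt2), and their 95% confidence intervals lay within -0.27 and 0.32. Wnt3a, the ligand of the tail bud, averaged 7.43 ± 0.06 in primed and 7.38 ± 0.05 in naive cells (SD, n = 3 each), and Wnt11 averaged 7.60 ± 0.02 and 7.65 ± 0.03. Wnt10a (0.12), Wnt10b (0.05), Wnt9b (0.02) and Wnt16 (-0.05) were above background on every array. Wnt2 had an adjusted p of 0.0510 and primed arrays (7.10, 7.24 and 7.07) above all naive arrays (7.02, 7.00 and 6.86), near the background cutoff.

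**Figure D2:**
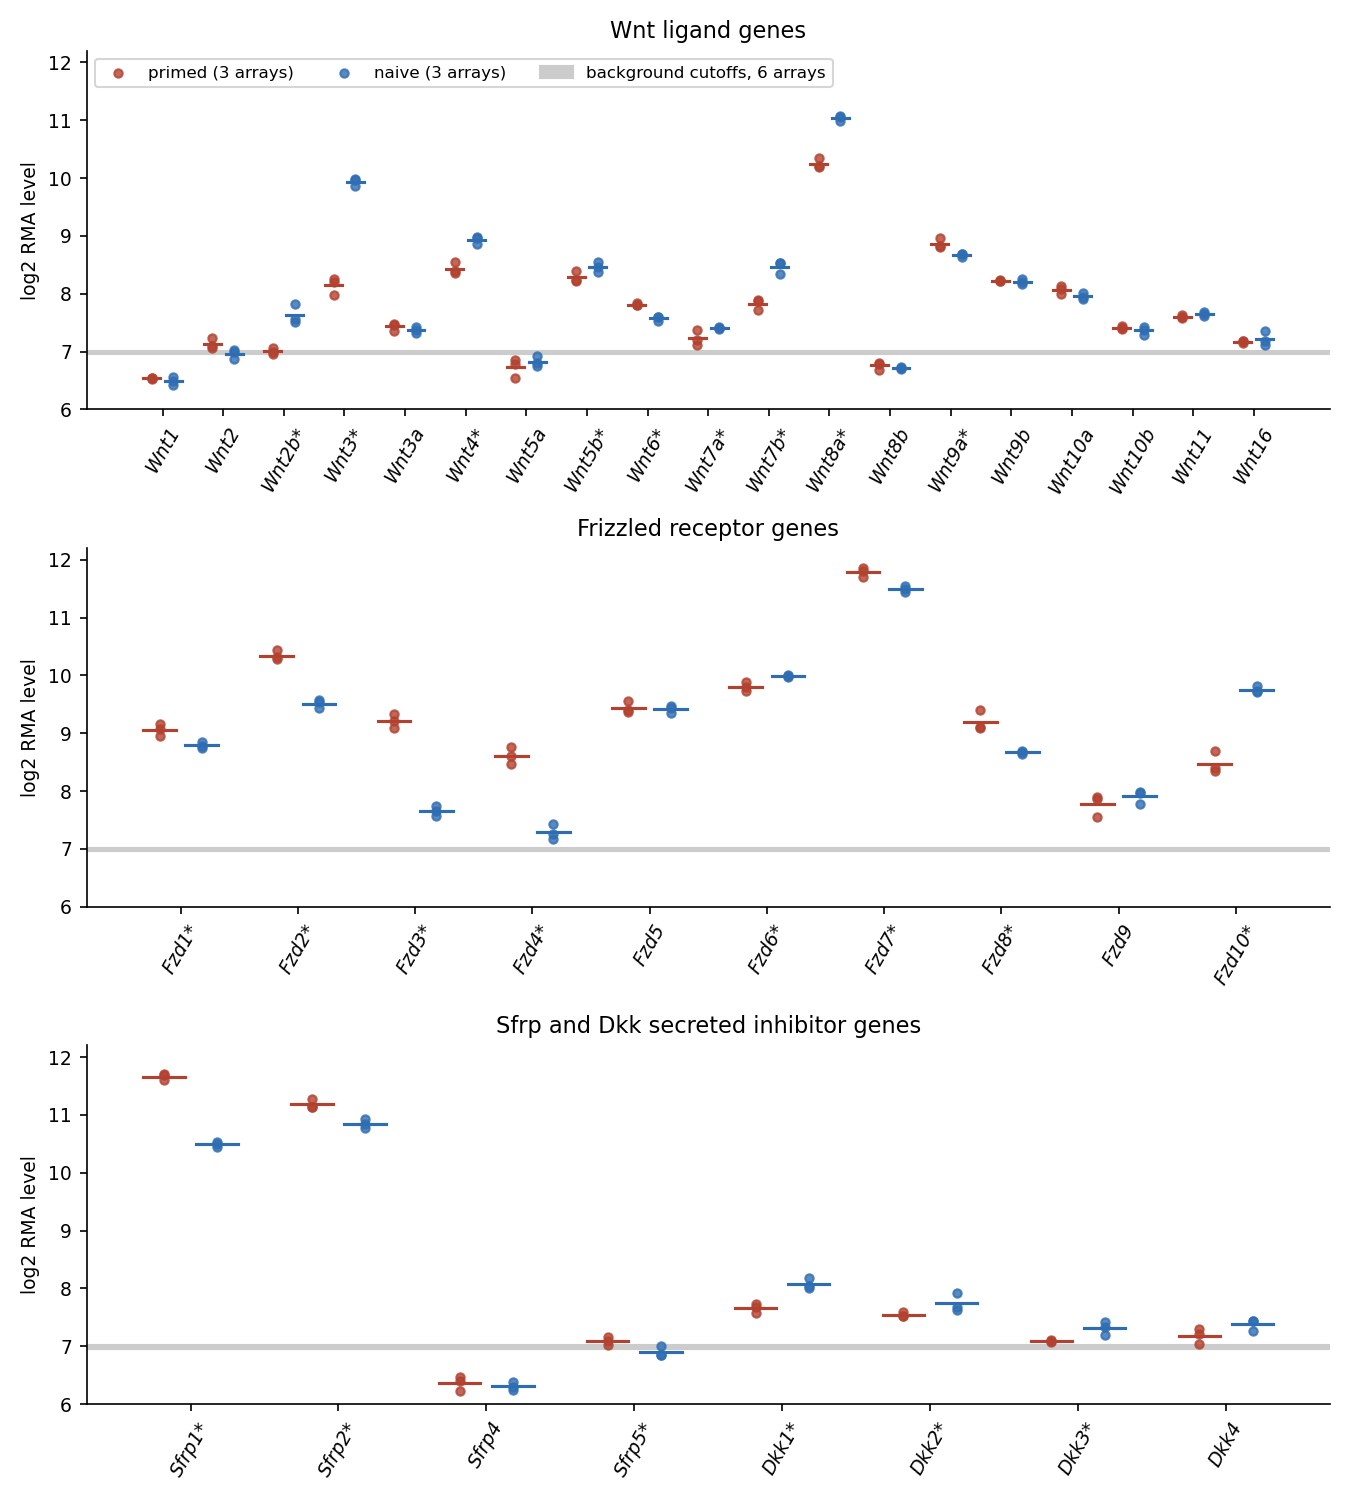
Levels (log2 RMA, vertical axis) of all 37 genes on each array, with points for the 3 primed arrays on the left and the 3 naive arrays on the right of each gene, lines for group means and asterisks for genes past an adjusted p of 0.05. The grey band spans the background cutoffs of the 6 arrays (6.96 to 7.02), under which Wnt1, Wnt5a, Wnt8b and Sfrp4 lie in both groups.

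Several Wnt genes lie next to each other in the genome, with 0 other measured genes between them in the RefSeq gene order. Wnt3 fell by 1.79 while its neighbour Wnt9b on chromosome 11 differed by 0.02 (limma adjusted p = 0.845). Wnt6 rose by 0.24 on chromosome 1, and its neighbour Wnt10a differed by 0.12 (adjusted p = 0.123). Wnt9a rose by 0.19 beside Wnt3a on chromosome 11, which differed by 0.06 (adjusted p = 0.463). Wnt1 and Wnt10b on chromosome 15 did not pass in either case (adjusted p = 0.503 and 0.527). Whether the neighbours of a pair differed from each other was not tested.

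Frizzled receptor genes were all above background on all arrays. Fzd3, a receptor of axon tracts and of planar polarity, was at 9.33, 9.21 and 9.09 on primed arrays, against 7.57, 7.65 and 7.75 on naive arrays. The groups stood far apart, with a difference of 1.55 (SE 0.07, limma adjusted p = 1.62e-08), the largest rise of the 37 genes. Fzd4, a receptor of retinal vessels that also binds Norrin, was at 8.77, 8.46 and 8.61 on primed arrays, against 7.26, 7.43 and 7.17 on naive arrays. Its naive values lay just above background, and it rose by 1.33 (SE 0.08, limma adjusted p = 2.25e-07).

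Fzd10 went the opposite way. It was at 8.69, 8.34 and 8.39 on primed arrays, against 9.73, 9.70 and 9.82 on naive arrays, a difference of -1.28 (SE 0.08, limma adjusted p = 2.80e-07). Fzd4, Fzd9 and Fzd10 form 1 subfamily by sequence, and its members thus showed a rise, a fall and, in Fzd9, no call: Fzd9 averaged 7.77 ± 0.19 in primed and 7.91 ± 0.12 in naive cells (SD, n = 3 each), with a 95% interval of the difference from -0.34 to 0.06. Fzd6, which acts with Fzd3 in neural tube closure and belongs to its subfamily, averaged 9.80 ± 0.08 in primed and 9.98 ± 0.02 in naive cells (SD, n = 3 each). Its difference of -0.18 (limma adjusted p = 0.0199) is opposite in sign to that of Fzd3, and it lost the call without naive replicate 2 or 3 or without primed replicate 2 or 3, with an adjusted p of at most 0.0951.

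In the subfamily of Fzd1, Fzd2 and Fzd7, 3 of 3 genes were called higher in primed cells. Of all genes 21.8% were so called, and of those outside background 27.8%. With 3 genes this count is a description. Fzd2 was at 10.43, 10.28 and 10.31 on primed arrays, against 9.53, 9.43 and 9.58 on naive arrays, a rise of 0.83 (SE 0.06, limma adjusted p = 6.98e-07). Fzd7, the receptor most often linked to self-renewal of pluripotent cells, averaged 11.78 ± 0.07 in primed and 11.49 ± 0.06 in naive cells, and Fzd1 averaged 9.06 ± 0.11 and 8.79 ± 0.05 (SD, n = 3 each). Their rises of 0.29 and 0.26 (limma adjusted p = 0.00165 and 0.00522) were small, though the groups did not overlap. Of the remaining subfamily, Fzd8 was at 9.40, 9.10 and 9.08 on primed arrays, against 8.69, 8.68 and 8.64 on naive arrays, and rose by 0.53 (SE 0.08, limma adjusted p = 0.000195). Fzd5, a receptor needed for yolk sac and placental vessels, averaged 9.44 ± 0.10 in primed and 9.43 ± 0.06 in naive cells (SD, n = 3 each). Its groups overlapped, and the 95% interval of its difference ran from -0.12 to 0.15.

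Fzd3 lies on chromosome 14, in a stretch from Shisa2 to Tmtc4. The bounds of the stretch came from an earlier scan of these same values for a run of genes higher in primed cells, so that its values are a description and support nothing. Without Fzd3, that stretch held 190 genes above background on at least 1 array, with a median difference of 0.42, and 138 of them (72.6%) were called higher in primed cells. On the rest of the chromosome the median was -0.03 over 311 genes, of which 81 (26.0%) were called higher in primed cells, against 27.8% of all genes outside background. The 20 nearest such genes around Fzd3, 10 on each side, had a median of 0.39, and 16 of them were higher in primed cells. For the other 36 members the same median of up to 20 neighbours lay between -0.15 and 0.14. The rise of Fzd3 was larger than that of most genes around it: 6 of the 190 differed at least as much, among them its next neighbour Fbxo16 (1.91, limma adjusted p = 5.34e-09). The part of the stretch in the rise of Fzd3 was not tested.

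**Figure D3:**
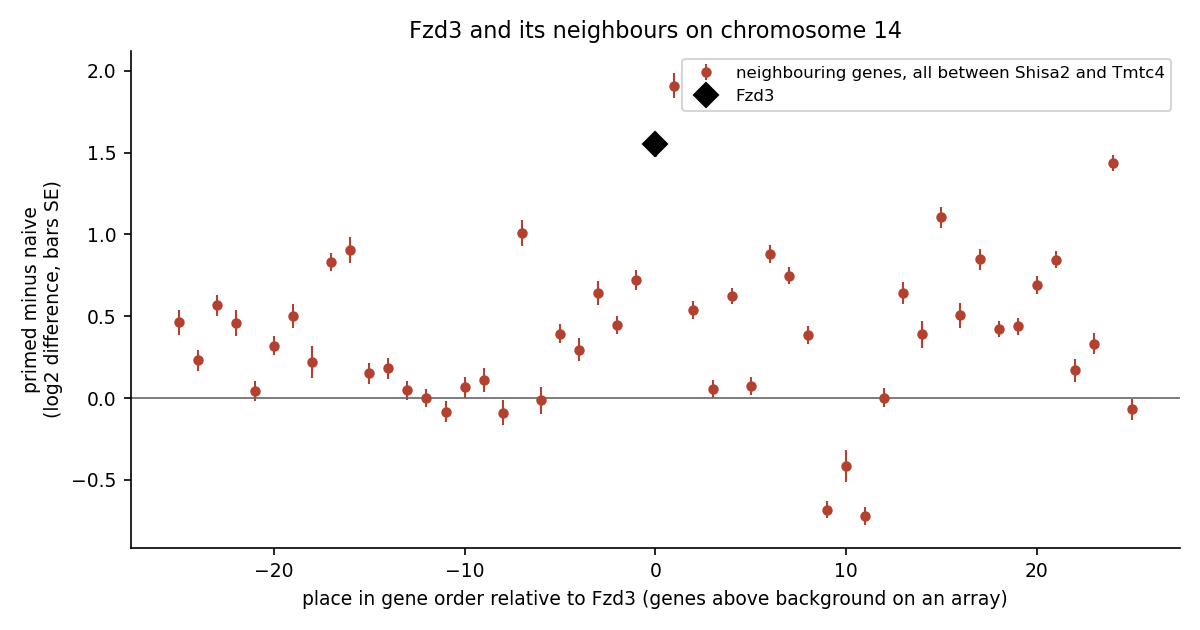
Differences (primed minus naive, log2, vertical axis, bars for the SE from limma) of Fzd3 (diamond) and of the 25 genes on each side of it in gene order (horizontal axis), leaving out genes in background on all arrays. Most neighbours lie above 0, and Fzd3 (1.55) is exceeded in this window by Fbxo16 (1.91).

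Of the secreted inhibitors, 3 Sfrp genes rose and 3 Dkk genes fell in primed cells, and of these 6 calls those of Sfrp1, Sfrp2 and Dkk1 held in all other fits in which they were tested. Sfrp1, which binds Wnts and restrains them in many tissues, was at 11.70, 11.61 and 11.68 on primed arrays, against 10.44, 10.50 and 10.53 on naive arrays. No arrays overlapped, and the rise was 1.17 (SE 0.05, limma adjusted p = 1.56e-08). Sfrp2 averaged 11.18 ± 0.07 in primed and 10.85 ± 0.07 in naive cells (SD, n = 3 each), a rise of 0.34 (limma adjusted p = 0.000699). Sfrp5 averaged 7.09 ± 0.07 in primed cells and 6.90 ± 0.09, in background, in naive cells (SD, n = 3 each). Its rise of 0.19 (limma adjusted p = 0.0263) lost the call without naive replicate 1 or 2 or without primed replicate 1 or 3 (adjusted p of at most 0.104). Sfrp1, Sfrp2 and Sfrp5 form a subfamily by sequence. Of the other one, Sfrp4 was in background in both groups, and Frzb (also known as Sfrp3 and not a member by its symbol) was in background in primed cells at 6.61 ± 0.17 and at 7.05 ± 0.08 in naive cells (SD, n = 3 each), a difference of -0.44 (limma adjusted p = 0.000938).

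Dkk1, the Lrp5 and Lrp6 antagonist needed for head formation, was at 7.58, 7.72 and 7.68 on primed arrays, against 8.01, 8.04 and 8.19 on naive arrays. It was lower on every primed array, with a difference of -0.42 (SE 0.06, limma adjusted p = 0.000214). Dkk2 averaged 7.54 ± 0.04 in primed and 7.74 ± 0.15 in naive cells, and Dkk3, the most divergent of the family, 7.09 ± 0.02 and 7.32 ± 0.12 (SD, n = 3 each). Their differences were -0.20 and -0.22 (limma adjusted p = 0.0454 and 0.0137). The primed values of Dkk3 lay just above background. The call of Dkk2 was lost under 7 of 13 alternative settings, and that of Dkk3 without naive replicate 2 (adjusted p = 0.0590, with a range of 0.00245 to 0.0590 over its 13 alternatives). Dkk4 averaged 7.18 ± 0.14 in primed and 7.38 ± 0.10 in naive cells (SD, n = 3 each), with overlapping arrays, and did not pass (-0.19, limma adjusted p = 0.0605).

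The other genes of the pathway were read from lists chosen with earlier results of these data known. They held 76 measured genes, of which 22 rose and 21 fell in primed cells. That is 56.6% of the lists, against 44.5% of all genes and 56.6% of the genes outside background. Among genes for lipidation, release and removal of ligands, 5 of 9 rose and 1 fell (66.7% called), with a median difference of 0.15. The rises numbered 3 without naive replicate 2 or without primed replicate 2, and the fall (Snx3, -0.14) was lost without any 1 array other than primed replicate 1, and also under quantile normalization, median centring and the replicate block. Wls, which carries Wnts to the cell surface, averaged 9.50 ± 0.05 in primed and 8.40 ± 0.06 in naive cells (SD, n = 3 each), a rise of 1.10 (limma adjusted p = 3.36e-08), and the Wnt antagonist gene Apcdd1 rose by 0.72. The retromer genes Vps26a (0.21) and Vps29 (0.17), whose products recycle Wls, rose slightly. The acyltransferase gene Porcn, which lipidates Wnts, did not pass (0.12, limma adjusted p = 0.158).

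Of 13 co-receptor genes, 3 rose and 2 fell, with a median difference of -0.01. The share called was 38.5%, against 44.5% of all genes and 56.6% of those outside background. Adgra2 averaged 9.97 ± 0.14 in primed and 8.62 ± 0.05 in naive cells, and Reck 9.63 ± 0.09 and 8.76 ± 0.04 (SD, n = 3 each), which are rises of 1.35 and 0.87 (limma adjusted p = 3.93e-08 and 3.75e-07). Their products form the co-receptor for the ligands Wnt7a and Wnt7b. As described above, Wnt7b was lower in primed cells (-0.64). The call of Wnt7a (-0.18) was lost under 9 of 13 alternative settings. Gpc3, for a heparan sulfate proteoglycan, rose by 0.88. Ror2, for a receptor of Wnt5a, averaged 9.19 ± 0.10 in primed and 10.07 ± 0.03 in naive cells (SD, n = 3 each), a difference of -0.88 (limma adjusted p = 4.25e-07), while Wnt5a itself was in background in both groups. Lrp5 (-0.01) and Lrp6 (0.08) did not pass.

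Of 14 other secreted modulators, 1 rose and 5 fell, with a median of -0.04. The share called was 42.9%, against 44.5% of all genes. The R-spondin genes Rspo3 (-0.61, limma adjusted p = 1.57e-05) and Rspo1 (-0.35, adjusted p = 0.00112), whose products strengthen Wnt signals, fell along with Frzb, and Ndp, for the Fzd4 ligand Norrin, was called (0.26) inside the background of both groups. Among 7 genes of receptor turnover, all outside background, 2 rose and 3 fell (71.4% called, against 56.6% of the genes outside background). Rnf43, for a ubiquitin ligase that removes Frizzled proteins, averaged 8.81 ± 0.08 in primed and 7.95 ± 0.10 in naive cells (SD, n = 3 each), a rise of 0.86 (limma adjusted p = 8.69e-07). Shisa2 rose by 0.46 and lies at the edge of the chromosome 14 stretch, while Shisa3 (-0.20) and Lgr5 (-0.15) fell by little. The 3 falls became 0 without naive replicate 2 or primed replicate 2, and 1 without naive replicate 1 or primed replicate 3. They also numbered 1 under quantile normalization, median centring and the replicate block, and 0 at an adjusted p under 0.01.

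Among 10 planar polarity genes, 5 rose and 2 fell (70.0% called). Of all genes 44.5% were called, and of those outside background, where all genes of this and the next 2 lists lay, 56.6%. Vangl1 averaged 10.27 ± 0.10 in primed and 11.69 ± 0.04 in naive cells (SD, n = 3 each), a difference of -1.42 (limma adjusted p = 9.16e-09). The paralogs Prickle1 (-0.70) and Prickle2 (0.98) went opposite ways, and Celsr1 rose by 0.55. Of 16 measured transducers 4 rose and 5 fell (56.25% called). The Dishevelled genes Dvl1 (0.50) and Dvl2 (0.34) rose, while Dvl3 did not pass (-0.07, limma adjusted p = 0.341). The TCF/LEF genes Lef1 (-1.38) and Tcf7l2 (-0.69) fell, and Tcf7l1 fell by little (-0.19). The rises among transducers numbered 2 without naive replicate 3 or primed replicate 2. Of 11 measured feedback targets, 3 rose and 5 fell (72.7% called). Rnf43 (0.86), Nkd2 (0.42) and Nkd1 (0.20) rose, and Lef1 (-1.38), Sp5 (-1.12), Axin2 (-0.64), Cdx2 (-0.37) and Lgr5 (-0.15) fell. Tcf7, listed in both, was not analysed here.

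**Figure D4:**
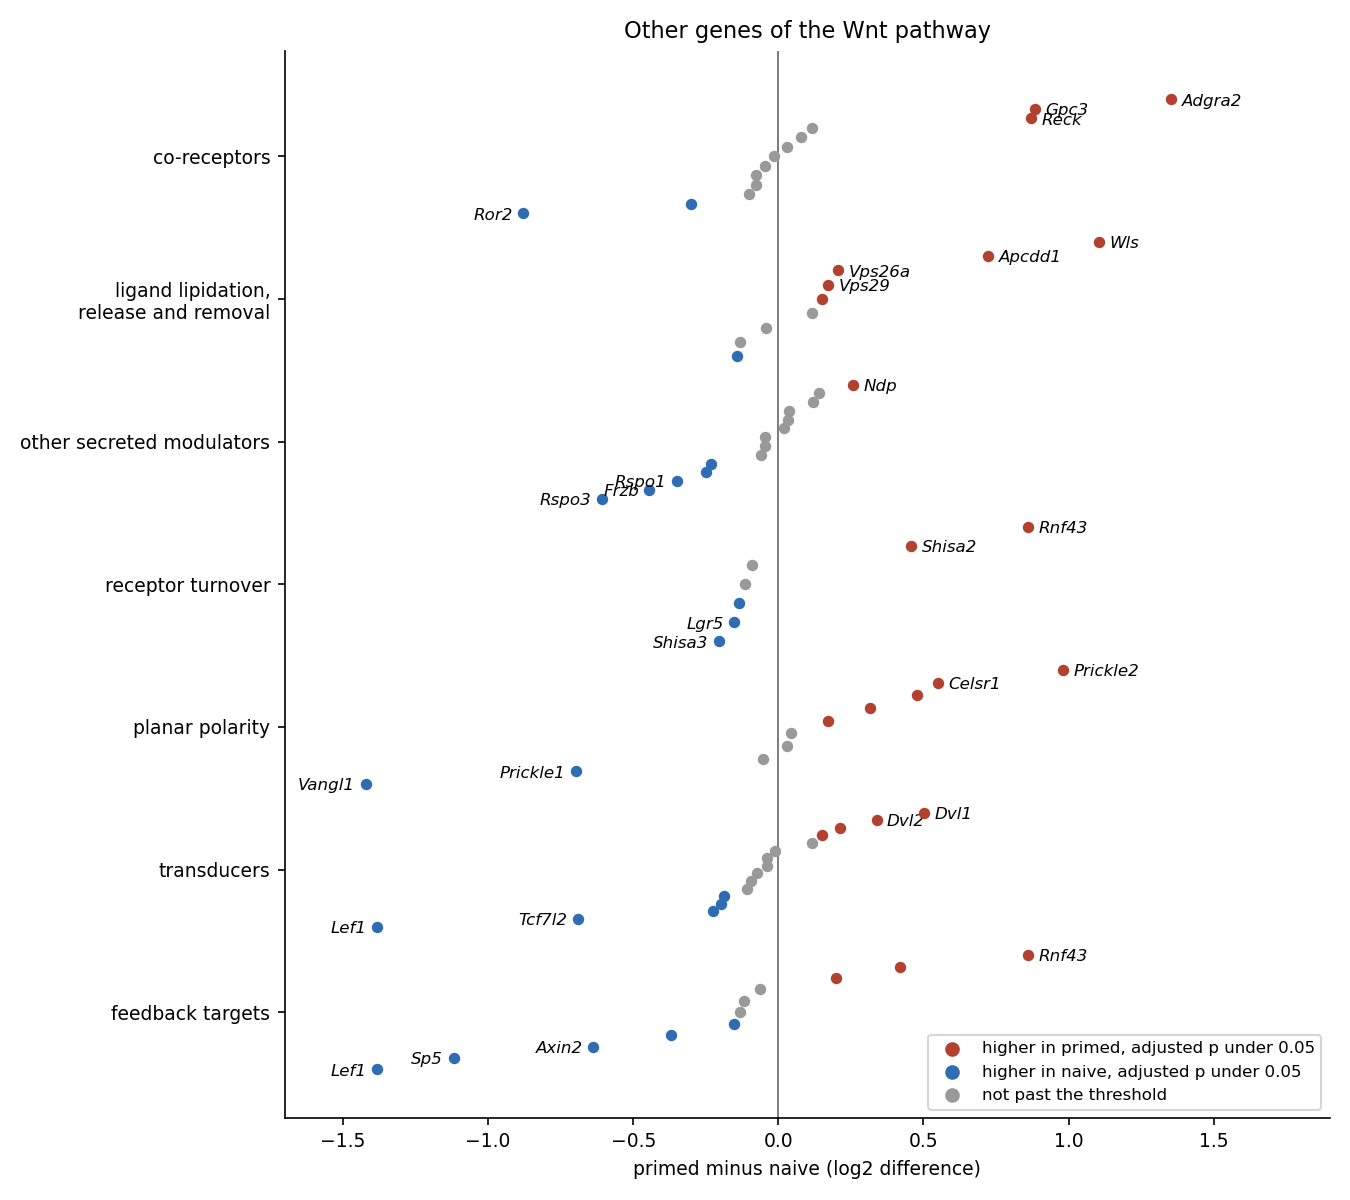
Differences (primed minus naive, log2, horizontal axis) of the other Wnt pathway genes by list, 1 point a gene, coloured where the adjusted p was under 0.05. Named are up to 4 called genes per list with the largest difference, among them Adgra2 (1.35) and Wls (1.10) on the right and Vangl1 (-1.42) and Lef1 (-1.38) on the left.

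Markers of pluripotent cells and of other cell types moved between the same groups. For comparison, 21.8% of all genes were called with a rise and 22.7% with a fall. Of the genes outside background 56.6% were called in either direction. In bulk samples, fewer cells of a type and less RNA per cell cannot be told apart. Of 6 pluripotency markers 0 rose and 4 fell in primed cells (11.87 to 11.95 on primed and 12.32 to 12.36 on naive arrays, as the mean log2 level of the list). Pou5f1 differed by -1.06, Nanog by -0.61, Sox2 by -0.52 and Sall4 by -0.44, while Lin28a (0.07) and Utf1 (-0.03) did not pass. Of 6 neural markers 5 rose in primed cells, and the mean log2 level of the list was 9.51 to 9.66 on primed and 8.78 to 8.86 on naive arrays. Of 6 streak and mesoderm markers 1 rose and 3 fell (7.64 to 7.70 on primed and 8.08 to 8.17 on naive arrays, Mesp1 in background in both), with Eomes at -2.20. Of 6 trophoblast markers 0 rose and 6 fell (7.78 to 7.83 on primed and 8.65 to 8.71 on naive arrays). Of 10 fibroblast markers 2 rose and 3 fell, with Lum and Postn in background in both groups. Their mean was 8.25 to 8.27 on primed and 8.07 to 8.11 on naive arrays, but 8.02 to 8.07 on primed and 8.17 to 8.20 on naive arrays without Dcn, which rose by 2.89. Of 8 endoderm markers 0 rose and 1 fell (7.41 to 7.45 on primed and 7.49 to 7.55 on naive arrays), with Sox17, Afp and Ttr in background in both groups. The part of these markers' cell types in the differences of Wnt, Fzd, Sfrp and Dkk genes was not tested.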

How the data were processed

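The deposited table held log2 values of 6 arrays and 35556 probe sets, made by the authors with RMA in Partek 6.6, per the submitters' processing notes. RMA's options and any genome build were not given in the sources used here. Names came from the platform annotation in GEO (21789 probe sets with 1 symbol, 1621 with several and not used, 12146 not named). By gene ID, 21698 of those with 1 symbol were found in RefSeq's gene table (GRCm38.p6), which supplied current symbols, chromosomes and gene order. The brightest probe set stood for each of 19938 genes. The comparison used lmFit and eBayes of limma 3.58.1 (R 4.3.3) on the values as deposited, two-sided and with no covariates. P-values were adjusted after Benjamini and Hochberg over all genes, with calls made under 0.05. Only the limma comparison, and no other step, was tried on simulated data. All members are named. Those past the threshold with a difference of at least 0.5 are given by array, and each other list by up to 4 called genes with the largest difference. Dkk1 and Wnt2 were given by array, and other list genes, Fbxo16, Fgf5, Esrrb and Otx2 were named, after values were seen. Members, lists and tests were chosen with earlier results of these data known. Promoter sequences are RefSeq's. Python 3.11.15 made summaries and figures. Precision is limited by 3 arrays per group.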

Additional observations from a re-analysis of the deposited data

How the results depend on the processing

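Of the 23 members called, 16 kept direction and call under all of 14 other fits in which they were tested, and none of the 37 reversed while called. Calls of Wnt5b, Wnt7a, Wnt9a, Fzd6, Sfrp5, Dkk2 and Dkk3 were lost in 1 to 9 fits each; Wnt2 (7 fits) and Dkk4 (4 fits) gained a call. At an adjusted p under 0.01, falls numbered 7 among all members, 1 among Frizzled and 1 among inhibitor genes, and 1 Wnt gene rose. With at least 2-fold differences, 3 members rose and 2 fell (Wnt 0 and 1, Frizzled 2 and 1, inhibitors 1 and 0), against 340 and 367 of all genes and 2 and 3 of the other pathway genes. With dim genes left out, 1 inhibitor gene fell, since fewer members were tested (22 of 37). Leaving out each array gave 10 to 11 rises and 8 to 10 falls among members, 2 to 2 and 5 to 6 among Wnt, 6 to 6 and 1 to 2 among Frizzled, 2 to 3 and 2 to 3 among inhibitor genes, 3926 to 4169 and 4007 to 4455 over all genes, and 18 to 20 rises and 16 to 21 falls among other pathway genes. The fall of Frizzled genes stood at 1 without naive replicate 2 or 3 or primed replicate 2 or 3. Quantile normalization gave 12 rises and 9 falls among members, against 5011 and 4092 over all genes. Same-numbered arrays did not deviate together (r of -0.109, 0.00151 and -0.0206 across genes), and no array correlated best with its own number. With 3 arrays per group these values cannot exclude a pairing, and the main fit used none. With the replicate block, 12 members rose and 10 fell, against 4172 and 4344 over all genes. A fit without genes that lay in background on each of the 6 arrays, which was chosen after seeing the data, gave 12 and 13. Over all genes in that fit the counts were 4225 and 4412. The direction of small differences near background is the least certain, since signal there is compressed.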
